A study of Mus musculus with 6 samples.

Results

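Glutathione S-transferase transcripts were followed in a mouse mammary carcinoma cell line, 4T1, with and without a nanoparticle and light treatment. The 10 genes were chosen by symbol, with earlier results of these data known. They are the rows whose Ensembl identifier maps in GENCODE M21 to a listed cytosolic, mitochondrial or microsomal transferase. All 10 were found among the 56748 genes of the files. They comprise 6 cytosolic enzymes (Gsta4, Gstm1, Gstm2, Gstp1, Gsto1 and Gstt1), the mitochondrial Gstk1, and 3 microsomal enzymes (Mgst1, Mgst2 and Mgst3). RNA was sequenced from 3 control samples and 3 treated samples, all labelled wild type and collected at 48 h. Treated cells had been grown for 24 h and given 125 µg/mL of Au/MoS2/Bi2S3 particles overnight. They were then irradiated with near-infrared light for 8 min and washed 24 h later. The labels do not say what the control cells received, and no group with only particles or only light is analysed here. The design text describes RNA of 3 individuals as pooled, and separate cultures within a group are not stated, so a p-value here reflects sample-to-sample spread that may be technical.

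Glutathione transferases join reduced glutathione to electrophiles such as lipid peroxidation aldehydes, quinones and many drugs. The conjugates are then pumped out of the cell and processed further outside it. The cytosolic enzymes are dimers grouped in classes (alpha, mu, pi, omega, theta), the kappa enzyme lies in mitochondria and peroxisomes, and the microsomal enzymes are unrelated membrane proteins, some of which also reduce lipid hydroperoxides or make leukotrienes. Several of the genes are known targets of the transcription factor NRF2, which binds antioxidant response elements (ARE), and pi class enzymes are abundant in many tumours.

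The promoters of Gsto1 and Mgst2 are shown because these 2 members passed the test between groups, and that of Gstp1 because it had the most abundant transcript. Each is the run of 250 bases before the RefSeq start on GRCm38.p6, 5′ to 3′ on the strand of the gene, with capitals for a match to any of the motifs searched. The Gsto1 stretch lies at chr19:47854723-47854972 on the plus strand, the Mgst2 stretch at chr3:51660929-51661178 on the plus strand, and the Gstp1 stretch at chr19:4037913-4038162 on the minus strand. GENCODE M21 places further starts of Mgst2 and Gstp1 upstream of the RefSeq start.
Gsto1: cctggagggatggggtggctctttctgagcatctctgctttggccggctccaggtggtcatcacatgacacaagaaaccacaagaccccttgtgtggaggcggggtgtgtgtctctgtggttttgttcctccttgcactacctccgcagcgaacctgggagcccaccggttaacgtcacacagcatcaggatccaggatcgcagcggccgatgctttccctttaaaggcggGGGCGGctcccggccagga
Mgst2: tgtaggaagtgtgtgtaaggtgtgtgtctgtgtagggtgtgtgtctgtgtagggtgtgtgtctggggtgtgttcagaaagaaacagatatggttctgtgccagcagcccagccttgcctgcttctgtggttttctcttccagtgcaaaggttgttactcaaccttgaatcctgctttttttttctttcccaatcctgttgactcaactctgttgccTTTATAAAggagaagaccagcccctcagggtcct
Gstp1: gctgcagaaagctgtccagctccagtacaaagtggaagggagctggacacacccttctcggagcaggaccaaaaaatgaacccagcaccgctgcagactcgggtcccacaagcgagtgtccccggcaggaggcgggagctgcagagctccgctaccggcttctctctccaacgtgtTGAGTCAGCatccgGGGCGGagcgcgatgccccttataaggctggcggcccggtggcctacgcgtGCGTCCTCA

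The motifs were the ARE core (TGACNNNGC or TGAGNNNGC), the GC box (GGGCGG) and the TATA box (TATAAA), each on both strands, with no exclusion of overlapping matches. In Gstp1 an ARE core match, TGAGTCAGC, began 74 bases before the RefSeq start, a second began 9 bases before it on the other strand, and a GC box match began 60 bases before it. In Gsto1 there was a GC box match, 19 bases before the start. Mgst2 carried a TATA box match that read on both strands, 34 and 32 bases before the start. Windows were found for 9 of the 10 members, 11 windows in all, and Gsta4 had none. An ARE core match was present in a window of 3 members (Gstp1, Mgst1 and Gstt1), against 23.0% of all 32851 RefSeq windows. GC box matches were present in 5 members, against 32.7% of windows, and TATA box matches in 2, against 12.4%. A match is a description of the letters and not a binding site.

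Gsto1, the omega class enzyme with thioltransferase and dehydroascorbate reductase activity, was 1.84-fold higher in treated cells and Mgst2, a microsomal enzyme that can make leukotriene C4, was 1.35-fold lower. The other 6 tested members, among them the abundant Gstp1 and Gstm1, did not pass the test. The summed level of all 10 members was 385.1 ± 30.4 FPKM (a fragment level per transcript length; SD, n = 3) in controls and 397.7 ± 11.4 in treated cells. By limma on log2(FPKM + 1), 1 of 8 tested members was higher and 1 lower at a Benjamini-Hochberg adjusted p under 0.05. In the same comparison 56.1% of all 11118 tested genes were called, 27.9% higher and 28.3% lower. The share of members called was 25%. Their median log2 fold change was 0.38, beside -0.01 for all genes tested. The 2 medians are not matched for level, and that of all genes was -0.24 with a minimum of 5 FPKM. Gstk1 and Gstt1 did not reach 1 FPKM in 3 libraries and were not tested. The 8 others passed that filter in both groups.

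Libraries held between 32.6 and 38.1 M (1e6) reads at genes, worked back from the deposited values. The library sizes that the deposited FPKM imply were 23.4 to 31.7 M in controls and 44.2 to 44.9 M in treated libraries, so the values were not scaled by reads at genes. As deposited, the median tested gene was level between groups, whereas the summed FPKM of all genes was between 450410 and 532580 in controls and between 235760 and 241950 in treated libraries. The members made up 0.0780%, 0.0913% and 0.0736% of all FPKM in controls 1 to 3, and 0.170%, 0.159% and 0.172% in treated libraries 1 to 3. The direction given for a member is that of the deposited scale, and is named where another scaling turns it. The median SD between replicates over all tested genes was 0.27 (log2) among controls and 0.07 among treated libraries.

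**Figure D1:**
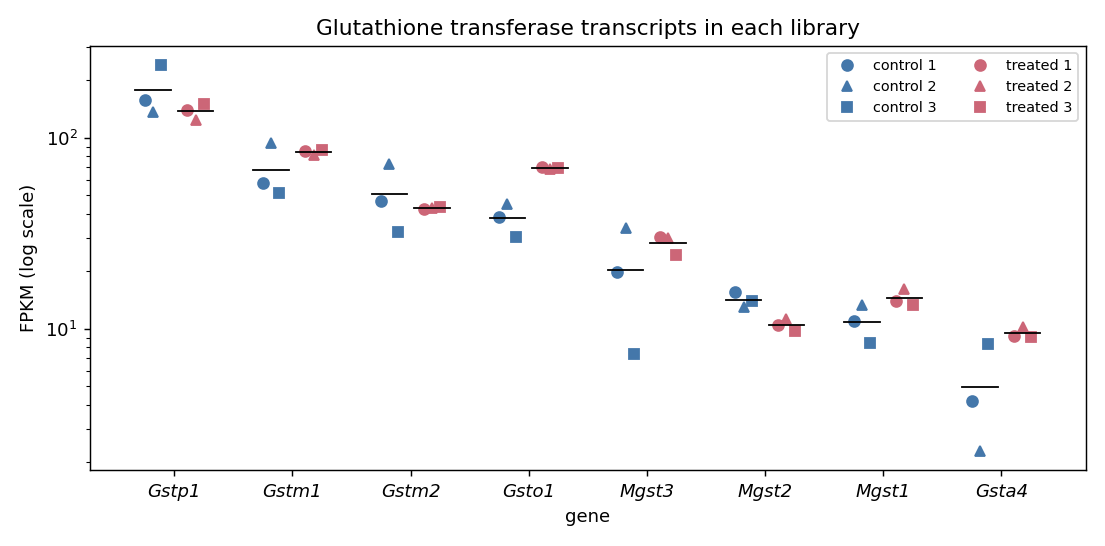
FPKM on a log scale of the 8 members that passed the filter in each library, with symbols for the replicate number (not known to pair the groups) and bars for the group mean. The 3 treated libraries lie close together for every gene, Gsto1 is above all controls between 68.6 and 70.6 FPKM, and Mgst3 ranges from 7.35 to 33.6 FPKM among controls.

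Among the cytosolic enzymes, Gsto1 (ENSMUSG00000025068, chromosome 19, 47854970 to 47864790, plus strand, GRCm38) stood at 38.6, 45.0 and 30.1 FPKM in controls 1 to 3. It stood at 70.6, 68.6 and 69.7 FPKM in treated libraries 1 to 3. All treated libraries lay above all controls, with 1428 to 2888 reads in a control and 6134 to 6417 in a treated library. The mean rose from 37.9 ± 7.47 to 69.6 ± 0.991 FPKM (SD, n = 3), a log2 fold change of 0.88 ± 0.16 SE (limma adjusted p = 0.00523). The gene was called in each of the 16 alternatives tried, with log2 fold changes between 0.62 and 1.86.

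Gstp1, the pi class enzyme (ENSMUSG00000060803, chromosome 19, 4035407 to 4037985, minus strand), was the most abundant member in every library. Levels were 157.7, 136.5 and 240.1 FPKM in controls 1 to 3, against 139.1, 124.5 and 149.5 in treated libraries 1 to 3. Control 3 was the highest and the treated libraries overlapped the other controls. The log2 fold change of -0.33 had a 95% interval from -0.89 to 0.23 (limma adjusted p = 0.263). It turned positive and was called with the same FPKM total in each library (0.66, limma adjusted p = 0.0163), with quantile normalization (0.69, limma adjusted p = 0.0188) and after removing trends on GC content, length and level (0.84, limma adjusted p = 0.0289). Of all stretches of 100 bases in its GENCODE transcripts, 25.1% also occur in Gstp2 or the pseudogene Gstp-ps, so its level is uncertain to that extent. Gstp2 itself was listed between 0 and 0.804 FPKM.

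The mu class genes Gstm1 and Gstm2, which are neighbours on chromosome 3, came next in level in controls. Gstm1 (ENSMUSG00000058135, 108012255 to 108017973, minus strand) stood at 58.0, 94.0 and 51.6 FPKM in controls 1 to 3 and at 85.6, 80.9 and 86.4 in treated libraries 1 to 3. Control 2 exceeded every treated library and the other 2 controls lay below them all. The log2 fold change was 0.36 (95% interval -0.21 to 0.92, limma adjusted p = 0.233), and without control 2 it was 0.61 and called (limma adjusted p = 0.0049). Against control 2 alone it was -0.16. It was also called under both other scalings, quantile normalization and removal of the trend, with values between 1.09 and 1.34. Gstm2 (ENSMUSG00000040562, 107981702 to 107986453, minus strand) stood at 46.9, 73.3 and 32.0 FPKM in controls 1 to 3 and at 42.5, 43.0 and 43.5 in treated libraries 1 to 3. The treated values of Gstm2 fell inside the range of the controls (log2 fold change -0.16, 95% interval -0.85 to 0.54, limma adjusted p = 0.667). Its sign turned, without a call, under both other scalings, quantile normalization and removal of the trend, with values between 0.52 and 0.82. Against control 2 alone Gstm2 was called lower (-0.76, limma adjusted p = 0.000279), and without control 2 its log2 fold change was 0.15. Only 5.86% of 100-base stretches of Gstm1 and 0.357% of those of Gstm2 also occur in another gene.

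Gsta4, an alpha class enzyme with high activity towards hydroxynonenal, an aldehyde of lipid peroxidation (ENSMUSG00000032348, chromosome 9, 78182774 to 78209349, plus strand), had the largest log2 fold change of the 8 tested members. Levels were 4.19, 2.29 and 8.36 FPKM in controls 1 to 3, against 9.16, 10.2 and 9.11 in treated libraries 1 to 3, on 92 to 573 reads. Every treated library was above every control, although control 3 came within 0.75 FPKM of the lowest treated value. The log2 fold change was 0.95 ± 0.36 SE (95% interval 0.07 to 1.83), which did not pass after adjustment (limma adjusted p = 0.0646). Without control 3 it was 1.34 and called (limma adjusted p = 0.00227). It was called as well with sample weights per group, under the 2 other scalings, with quantile normalization, with the trend removed and against control 2 alone, and its adjusted p over all alternatives ran from 0.000122 to 0.159. Groups without overlap were found for 4 of the 8 tested members (Gsta4, Gsto1 and Mgst1 higher, Mgst2 lower), against 67.7% of all tested genes.

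Theta and kappa class transcripts were scarce. Gstt1 (ENSMUSG00000001663, chromosome 10, 75783813 to 75798584, minus strand) had 0, 2 and 0 reads in controls 1 to 3 and 2, 0 and 1 in treated libraries 1 to 3. No library exceeded the limit that a count of 0 allows, which is 3 reads or 0.0437 to 0.0838 FPKM, so no difference was detectable at this depth. Gstk1 (ENSMUSG00000029864, chromosome 6, 42245935 to 42250447, plus strand) had 7, 16 and 2 reads in controls and 20, 22 and 31 in treated libraries. Its levels were 0.152, 0.343 and 0.0581 FPKM in controls 1 to 3 and 0.303, 0.339 and 0.477 in treated libraries 1 to 3, so that control 2 overlapped the treated group. With no filter on low values its log2 fold change was 0.22 (limma adjusted p = 0.217), on a scale that understates changes at such levels.

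Of the microsomal genes 1 passed the test. Mgst2 (ENSMUSG00000074604, chromosome 3, 51660360 to 51682677, plus strand) stood at 15.5, 13.0 and 14.0 FPKM in controls 1 to 3 and at 10.5, 11.2 and 9.71 in treated libraries 1 to 3. All treated libraries were below all controls. On the log2 scale the change was -0.40 ± 0.11 SE (limma adjusted p = 0.025). The call was lost without control 1 (limma adjusted p = 0.08) and without treated 1, 2 or 3 (0.0951, 0.0685 and 0.116), with quantile normalization (0.0932) and with sample weights per group (0.0685). With the same FPKM total in each library Mgst2 was called higher instead (0.52, limma adjusted p = 0.0103), and with scaling by recovered reads its sign turned without a call (0.29, limma adjusted p = 0.0815).

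Mgst1, which has transferase and peroxidase activity in the endoplasmic reticulum and outer mitochondrial membrane (ENSMUSG00000008540, chromosome 6, 138140316 to 138156755, plus strand), stood at 10.9, 13.3 and 8.46 FPKM in controls 1 to 3. In treated 1, 2 and 3 it stood at 14.1, 16.2 and 13.4 FPKM. The groups did not overlap, by a narrow margin between control 2 and treated 3. The log2 fold change was 0.40 (95% interval -0.03 to 0.83, limma adjusted p = 0.0973), and it was called without control 2 (0.54, limma adjusted p = 0.022) and under both other scalings, quantile normalization and removal of the trend. Mgst3, a further microsomal enzyme with peroxidase activity (ENSMUSG00000026688, chromosome 1, 167371966 to 167393841, minus strand), stood at 19.7, 33.6 and 7.35 FPKM in controls 1 to 3. In treated 1, 2 and 3 it stood at 30.4, 29.8 and 24.4 FPKM. The controls of Mgst3 spanned 4.57-fold, on both sides of the treated group, and the log2 fold change of 0.68 had a 95% interval from -0.52 to 1.88 (limma adjusted p = 0.281). Without control 2 it was 1.14 and called (limma adjusted p = 0.0444), and without control 3 it was 0.12. Mgst3 was also called higher with the same FPKM total in each library, and its sign turned against control 2 alone.

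**Figure D2:**
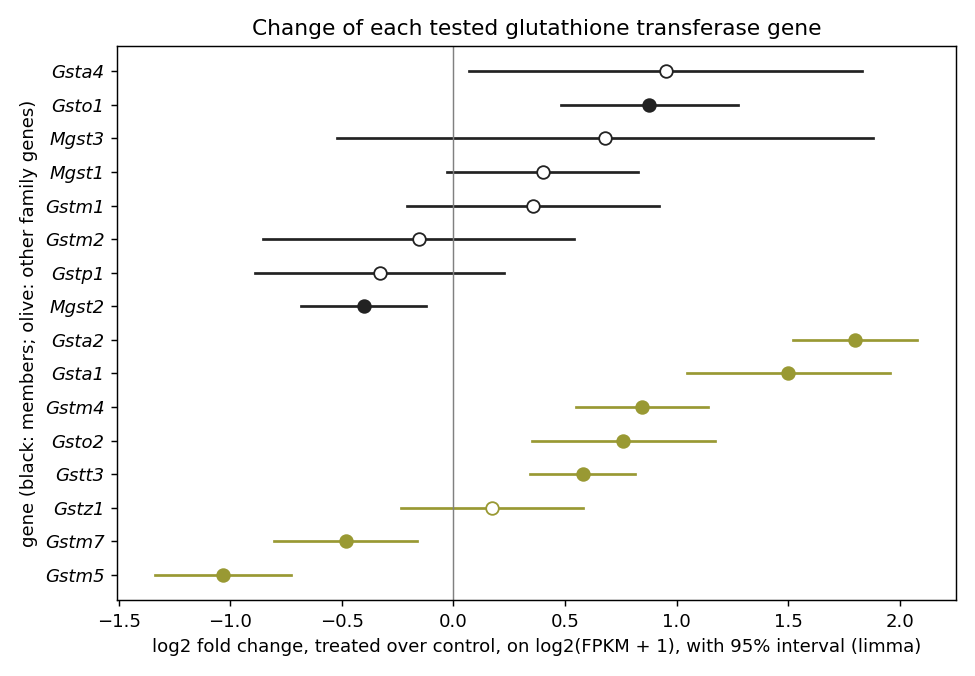
Log2 fold changes on the log2(FPKM + 1) scale with 95% intervals from limma for the 8 tested members (black) and the 8 other tested genes of the family (olive); filled points passed an adjusted p of 0.05. Members lie between -0.40 and 0.95 with 2 filled, while the other family genes lie between -1.03 and 1.80 with 7 filled.

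Controls differed among themselves more than treated samples did. For 5 members (Gstm1, Gstm2, Gsto1, Mgst1 and Mgst3) control 2 was highest and control 3 lowest, an order shared by 32.2% of all tested genes. For Gstp1 and Gsta4 the order was the reverse, with control 3 highest and control 2 lowest, as for 33.7% of tested genes. Mgst2 followed neither order, and its controls varied least, with a coefficient of variation of 9.11% against 64.9% for Mgst3 and 62.7% for Gsta4. In treated samples the coefficient of variation was between 1.2% (Gstm2) and 11.7% (Mgst3) for the tested members. Some markers of other cell types had 1 of these orders. The summed FPKM of 7 fibroblast genes was 412.9, 204.3 and 1168 in controls 1 to 3 and 51.9 to 55.1 in treated samples. That sum was mainly Col1a1 and Col3a1, while Dcn, Lum and Col1a2 were at or under 0.0697 FPKM. The summed FPKM of 7 immune genes was 131.8, 444.2 and 76.98 in controls 1 to 3 and 241.9 to 259.9 in treated samples, almost all of it Cd68, with Itgam and Adgre1 listed at 0. Itgam shares 68.7% of its exon length with the gene model Gm49368 on the same strand, so its listed 0 is uncertain. Endothelial markers summed to between 0.762 and 1.88 FPKM and hepatocyte markers to at most 0.0366. Of 8 epithelial markers, Krt8 and Krt18 were abundant (at least 271.6 FPKM in every library) and Epcam stood at 4.43 to 5.74 FPKM in controls and 0.760 to 0.968 in treated samples. All 3 were called lower on the deposited scale (limma adjusted p = 0.000295 for Epcam, 0.000581 for Krt18 and 0.023 for Krt8). Epcam passed the filter in controls only and had to differ to be tested, so its call adds nothing to that count. Krt18 went from 861.1 to 285.6 FPKM, and was not called with quantile normalization (-0.30, limma adjusted p = 0.14) or with the trend removed (-0.15, limma adjusted p = 0.48). Krt8 went from 479.9 to 351.4 FPKM, a call lost without control 1 (0.0676) and without treated 1, 2 or 3 (0.109, 0.101 and 0.0916), and its sign turned under both other scalings, quantile normalization and removal of the trend. Cdh1, which encodes E-cadherin, was at most 0.0989 FPKM, and Krt7, Krt14, Cldn4 and Cldn7 were at most 0.611. The part of these markers in the results was not tested, and in bulk RNA fewer cells of a type and less RNA per cell cannot be told apart.

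By level per length, the order in controls was Gstp1, Gstm1, Gstm2, Gsto1, Mgst3, Mgst2, Mgst1, Gsta4, Gstk1 and Gstt1. The control ranges of neighbours from Gstm1 to Mgst1 in that order overlapped, while Gstp1 stood above and Gstk1 and Gstt1 stood apart below. The Gsta4 range did not overlap that of its neighbour Mgst1, but it did overlap that of Mgst3. In control 3 Gsta4 stood at 8.36 FPKM and Mgst3 at 7.35. In treated samples Gsto1 came ahead of Gstm2 in 3 of 3 libraries, and Mgst1 came ahead of Mgst2 in 3 of 3. There the Mgst2 and Gsta4 ranges were the neighbours that overlapped.

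Ratios between members within a library do not depend on the scaling between libraries. Ratios to Gsto1 were lower in treated libraries for both mu class members and Gstp1. The Gstm2 to Gsto1 ratio was 1.22, 1.63 and 1.06 in controls 1 to 3 and 0.602, 0.627 and 0.624 in treated libraries 1 to 3. The Gstp1 to Gsto1 ratio was 4.09, 3.03 and 7.97 in controls and 1.97, 1.81 and 2.15 in treated libraries. In both, every treated library lay below every control. The Gsto1 to Mgst2 ratio was 2.70 ± 0.684 (SD, n = 3) in controls and 6.68 ± 0.527 in treated libraries, and the Mgst2 to Mgst1 ratio 1.35 ± 0.346 and 0.721 ± 0.0277. The mu class pair had a Gstm1 to Gstm2 ratio of 1.24, 1.28 and 1.61 in controls and 2.01, 1.88 and 1.98 in treated libraries. Of the 28 pairs of tested members 11, or 39.3%, had groups that did not overlap, against 66.2% of all pairs of tested genes above 0 in every library. An exact two-sided permutation test gave p = 0.1 for these 11 pairs, the smallest that 3 against 3 samples allow, and 0.255 adjusted over the 28 pairs, so none of the ratio differences passes a threshold of 0.05.

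**Figure D3:**
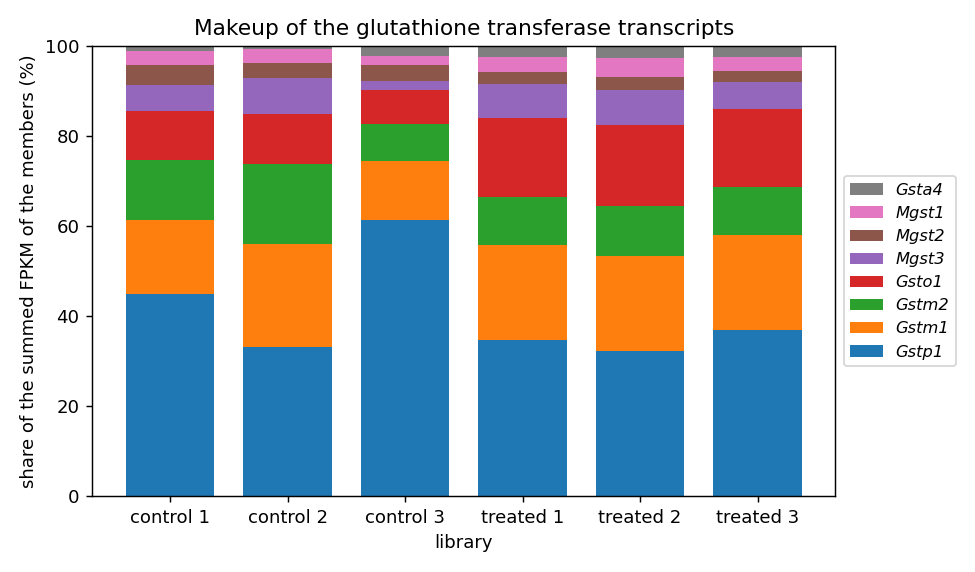
Stacked bars of the share of the members' summed FPKM held by each of 8 members in each library (Gstk1 and Gstt1 are not drawn, the larger of them at most 0.117%). The Gstp1 share runs from 33.2% to 61.2% in controls and from 32.4% to 36.8% in treated libraries, and the Gsto1 share from 7.68% to 11.0% and from 17.2% to 17.8%.

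As shares of the members' summed FPKM, Gstp1 held 46.4 ± 14.1% (SD, n = 3) in controls and 34.6 ± 2.23% in treated libraries, with ranges that overlapped. The share of Gsto1 was 9.87 ± 1.89% and 17.5 ± 0.339%, and that of Mgst2 3.71 ± 0.644% and 2.64 ± 0.261%. For both the groups did not overlap, and neither did they for the shares of Gsta4 and Mgst1. The other tested members overlapped, and no like count was made over all genes.

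Other genes of the family, listed with the members and all 16 found in the files, were tested in the same fit. Of the 8 that were tested, 5 were higher (Gsta1, Gsta2, Gstm4, Gsto2 and Gstt3), 2 lower (Gstm5 and Gstm7) and 1 not called (Gstz1), a share of 87.5% against the same 56.1%. Gsta1, Gsta2 and Gstt3 reached 1 FPKM only in treated libraries and had to differ to be tested, so their calls add nothing to that count. Whether the share differs from that of the members was not tested.

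Gsta2, an alpha class enzyme, had 0, 6 and 0 reads in controls 1 to 3 and 120, 149 and 150 in treated libraries 1 to 3. In FPKM this was 0, 0.161 and 0 against 2.27, 2.86 and 2.88 (log2 fold change 1.80, limma adjusted p = 0.000243). Its near copy Gsta1 went from 0.134, 0 and 0.625 FPKM to 2.40, 2.34 and 2.67 (log2 fold change 1.5, limma adjusted p = 0.00124). Reads of this pair are uncertain, since 80.6% of 100-base stretches of Gsta1 and 28.4% of those of Gsta2 occur in each other or in the gene models Gm3776 and Gm10639. Both were called in each alternative in which they reached the minimum level, which they did not with a minimum of 5 FPKM or without a treated library.

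Within the mu class cluster Gstm5 fell and Gstm4 rose. Gstm5, a mu class gene with an antisense neighbour over 13.9% of its exon length, stood at 36.1, 40.4 and 31.5 FPKM in controls 1 to 3 and at 16.3, 17.8 and 17.1 in treated libraries 1 to 3. No treated library reached the lowest control, and the log2 fold change was -1.03 (limma adjusted p = 0.00114). It was no longer called with the same FPKM total in each library (-0.07, limma adjusted p = 0.724) or with scaling by recovered reads (-0.31, limma adjusted p = 0.132). Gstm7 stood at 13.2 ± 2.03 and 9.12 ± 0.456 FPKM (SD, n = 3; log2 fold change -0.48, limma adjusted p = 0.022), a call lost without treated 1, 2 or 3 (0.0959, 0.0755 and 0.074), with quantile normalization (0.0544) and with the trend removed (-0.18, 0.309), and turned with the same FPKM total (0.43, limma adjusted p = 0.0413) and with scaling by recovered reads (0.20, limma adjusted p = 0.286). Gstm4 rose from 2.38 ± 0.403 to 5.05 ± 0.202 FPKM (log2 fold change 0.85, limma adjusted p = 0.00204), called in each alternative except the minimum of 5 FPKM, where it was not tested.

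Gsto2, the second omega gene and close to Gsto1 on chromosome 19, stood at 1.62, 1.71 and 2.76 FPKM in controls 1 to 3 and at 4.49, 4.13 and 3.61 in treated libraries 1 to 3. Thus both omega genes were higher in all treated libraries (Gsto2 log2 fold change 0.76, limma adjusted p = 0.0101, and 0.0507 without treated 1). Gstt3, a theta class gene that shares 13.6% of its exon length with the gene model Gm20441, went from 0.677 ± 0.107 to 1.51 ± 0.161 FPKM (limma adjusted p = 0.00354). Its call was lost with quantile normalization (0.19, limma adjusted p = 0.239) and with the trend removed (0.08, limma adjusted p = 0.502). Gstz1, the maleylacetoacetate isomerase of tyrosine breakdown, stood at 2.85 ± 0.717 and 3.31 ± 0.452 FPKM (limma adjusted p = 0.414), overlaps Pomt2 on the other strand over 9.14% of its exon length, and was called higher under both other scalings. The 8 genes not tested (Gsta3, Gstm3, Gstm6, Gstp2, Gstp3, Gstt2, Gstt4 and Hpgds) stayed at or under 0.804 FPKM. Of the membrane relatives of the microsomal enzymes, Ptges, a prostaglandin E synthase, was called lower (77.4 ± 14.4 to 51.0 ± 1.49 FPKM, limma adjusted p = 0.0207), and Alox5ap and Ltc4s were not tested. The Ptges call was lost without control 1 (0.0549) and without treated 1, 2 or 3 (0.0736, 0.082 and 0.0879), and its sign turned under both other scalings, quantile normalization and removal of the trend.

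**Figure D4:**
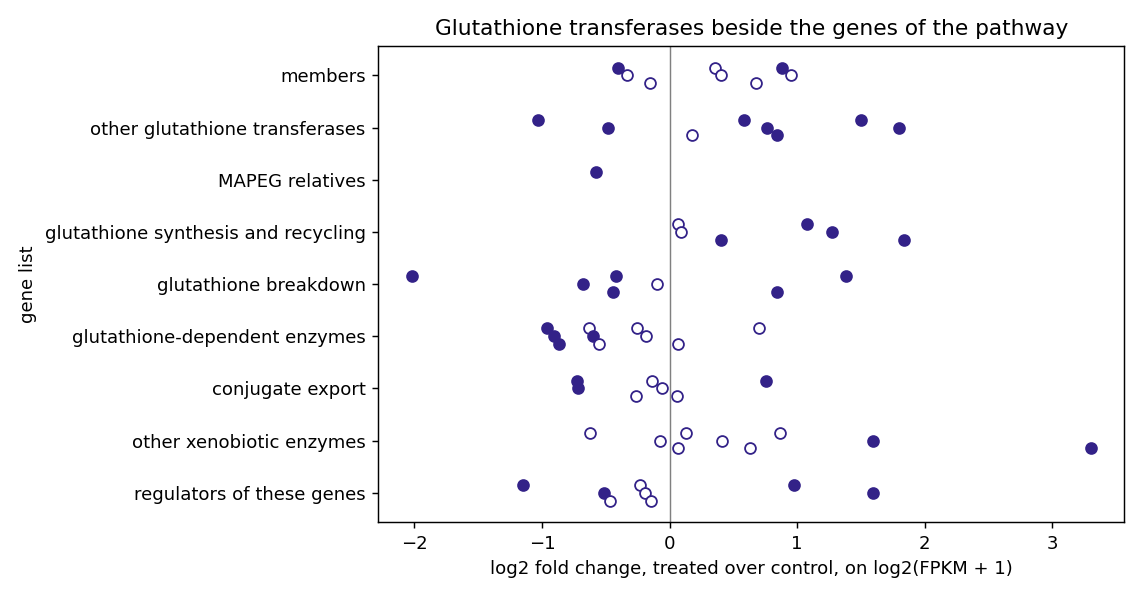
Log2 fold changes of the tested genes of each list, treated over control, with filled points for an adjusted p under 0.05 (limma); vertical offsets within a list only separate the points. The members lie between -0.40 and 0.95 with 2 filled points, and the 4 filled points of the synthesis and recycling genes lie between 0.40 and 1.84.

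Genes that make and recycle glutathione, the co-substrate of these enzymes, were higher for 4 of 6 tested and lower for 0 (median log2 fold change 0.74), beside 27.9% higher and 28.3% lower among all genes tested. Slc7a11, the cystine importer, went from 0.115, 0.227 and 0.230 FPKM to 3.43, 3.20 and 3.17 (limma adjusted p = 0.000137). It passed the filter in treated libraries only and had to differ to be tested, so its call adds nothing to that count. Gclm, the modifier subunit of glutamate-cysteine ligase, rose 2.75-fold, from 4.15 ± 0.530 to 11.4 ± 0.218 FPKM (SD, n = 3; limma adjusted p = 0.000467). Gsr, glutathione reductase, and Gclc, the catalytic subunit of the ligase, were 2.19-fold and 1.37-fold higher, and the call of Gclc was lost without treated 1, 2 or 3 (limma adjusted p between 0.0696 and 0.105) and with the trend removed (0.122). Gss and Slc3a2 were not called.

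Of 7 tested genes of glutathione breakdown 2 were higher and 4 lower (median -0.42), beside the same 27.9% and 28.3%. Chac2, a cytosolic glutathione-degrading enzyme, went from 0.512 ± 0.279 to 2.93 ± 0.545 FPKM (limma adjusted p = 0.00121), and it too passed the filter in treated libraries only, so its call adds nothing to the count. Ggt7, of the gamma-glutamyltransferase family, fell from 20.6 ± 2.08 to 4.32 ± 0.378 FPKM (log2 fold change -2.02, limma adjusted p = 0.000207). Among 10 other enzymes that use glutathione or a related active site 0 were higher and 4 lower (median -0.57), a share of 40% called beside 56.1% of all genes tested. Txndc12, a thioredoxin-like protein of the endoplasmic reticulum, went from 34.2 ± 7.84 to 17.5 ± 0.699 FPKM (limma adjusted p = 0.00698) and Glrx3, a glutaredoxin of iron-sulfur metabolism, from 42.5 ± 11.3 to 20.8 ± 1.12 (limma adjusted p = 0.00811). Neither was called under the 2 other scalings, where their log2 fold changes were between -0.24 and 0.06. Txndc12 was not called with the trend removed either (limma adjusted p = 0.0569), nor Glrx3 with quantile normalization (0.0951).

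Transporters that export conjugates were higher for 1 of 7 tested and lower for 2 (median -0.14), or 42.9% called beside 56.1%. Abcc4 rose from 7.0 ± 0.569 to 12.5 ± 0.522 FPKM (SD, n = 3; limma adjusted p = 0.0018). Other enzymes of foreign compound metabolism were higher for 2 of 9 tested and lower for 0 (median 0.41), or 22.2% called beside 56.1%. The 7 others were not called. Ephx1, microsomal epoxide hydrolase, was 4.78-fold higher (limma adjusted p = 0.000164) and Nqo1, the quinone reductase, 9.05-fold (limma adjusted p = 0.00301). The controls of Nqo1 varied widely, at 9.14, 15.4 and 2.56 FPKM in controls 1 to 3, so the size of its fold change is uncertain. In treated libraries 1 to 3 Nqo1 stood at 82.9, 80.7 and 81.8 FPKM.

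Of 8 tested regulators 2 were higher and 2 lower (median -0.21), a share of 50% called that is near the 56.1% of all genes. Nfe2l2, the gene for NRF2, which was picked after its values were seen, stood at 12.1, 19.4 and 6.41 FPKM in controls 1 to 3 and at 36.6, 36.5 and 38.0 in treated libraries 1 to 3 (limma adjusted p = 0.00978). Its controls had the order of Gsto1, Gstm1, Gstm2, Mgst1 and Mgst3, which 32.2% of all tested genes share, while Gstp1 and Gsta4 had the reverse. Keap1, the inhibitor of NRF2, rose from 4.36 ± 0.737 to 9.48 ± 0.531 FPKM (limma adjusted p = 0.00172). Maff, a small MAF protein that pairs with NRF2, went from 70.7 ± 18.6 to 30.6 ± 1.30 FPKM (limma adjusted p = 0.00365), and was not called with the same FPKM total (-0.17, limma adjusted p = 0.322) or with the trend removed (-0.41, limma adjusted p = 0.138).

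**Figure D5:**
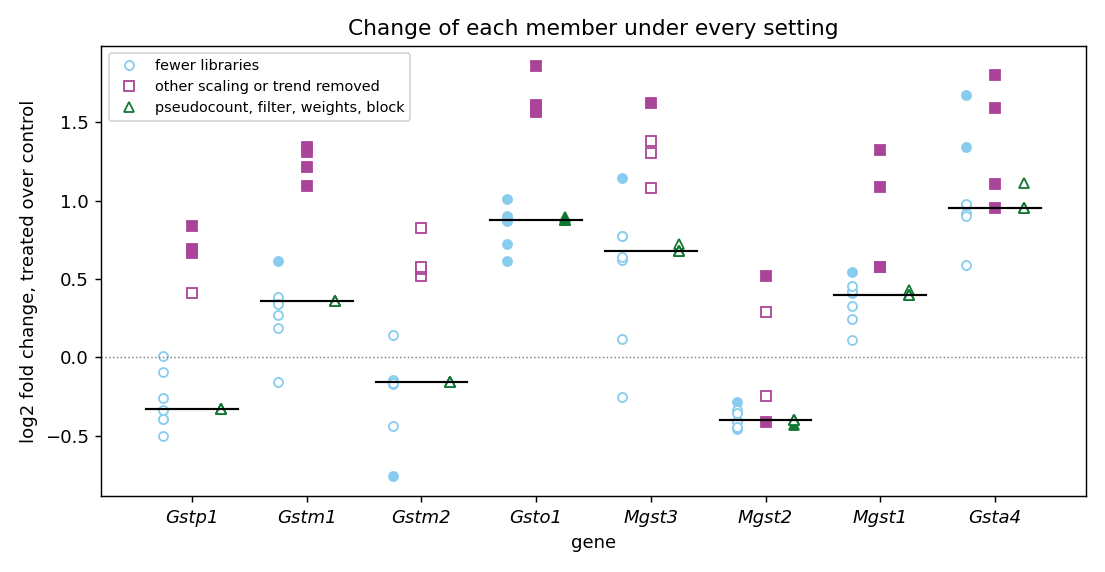
Log2 fold change of each tested member under the deposited scaling with all 6 libraries (black line) and under 16 alternatives; filled symbols passed an adjusted p of 0.05 (limma). Gsto1 is filled throughout, the squares of other scalings, quantile normalization and trend removal lie above the black line for all members except Mgst2, where 1 of 4 lies just below it, and Gstp1 turns from -0.33 to as much as 0.84.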

How the data were processed

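RNA was sequenced in 6 samples of 4T1 cells, 3 control and 3 treated, all with 1 batch label. The input was 3 µg of RNA, per the labels' protocols, captured with poly-T beads, made into libraries of 150 to 200 bp fragments and read as paired 150 bp reads. The sources used here do not give the aligner, counter, build, annotation or strandedness.

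FPKM per gene is what the authors deposited, per the file headers. GENCODE M21 gave symbols for 52125 of 56748 identifiers, coordinates (GRCm38), exon lengths and GC content, and the authors may have used another annotation. RefSeq (GRCm38.p6) gave promoters. Low FPKM values fell on steps of 1 read: between 92.5% and 93.4% of values under 200 reads were whole within 0.02 of a read, which gave reads per gene. These bear on counting error only, as reads amplified by PCR and lacking molecular identifiers may repeat 1 molecule.

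Group was the only term of a limma fit (version 3.58.1, R 4.3.3, trended prior) to log2(FPKM + 1) of the 11118 genes that reached 1 FPKM in 3 or more libraries, with Benjamini-Hochberg adjustment over all of them. It was also run on simulated data in which each gene varied independently. Such data lack the control orders shared across genes, so nothing is concluded from that run. Fold changes are ratios of mean FPKM, and the log2 scale understates changes of low genes. The members, the gene lists and the motifs were chosen with earlier results of these data known. Genes named are the members, the other tested family genes, and the called riser and faller with the smallest p of each list (2 of one direction where only one was called). A called gene of the export list is not reported here. Gsr, Gclc, Nfe2l2 and tests of Krt8, Krt18 and Epcam were added after their values were seen. Alternatives changed the pseudocount, filter, scaling, gene-property trend, weights, replicate block and libraries.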

Additional observations from a re-analysis of the deposited data

How the results depend on the processing

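Of the 8 tested members, Gsto1, Gsta4 and Mgst1 kept their sign under all 16 alternatives, and Gsto1 its call. The number of members called was 2. It was 7 (all higher) with the same FPKM total in each library, 5 (all higher) with quantile normalization, 6 (5 higher, 1 lower) after removing trends on GC content, length and level, 4 against control 2 alone (whose spread is taken from the treated group), 4 (all higher) with scaling by recovered reads per library (an alternative chosen after seeing the data), and between 1 and 5 leaving out 1 library. Those 2 scalings move the median of all genes to 0.80 and 0.61 on the log2 scale, against -0.01, so part of each rise under them is that shift. Among all genes tested, 8270 of 11520 were called with the same FPKM total and 7421 of 11406 with scaling by recovered reads. The counts were 5751 of 11118 with quantile normalization and 4709 of 10993 with the trends removed.

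Among all genes 6240 of 11118 tested were called, 3901 with a minimum of 5 FPKM and 3553 to 7222 leaving out 1 library. Calls were fewest without treated 1, 2 or 3, at 3643 of 10353, 3733 of 10356 and 3553 of 10366 genes tested. The share called fell there as well, so a call lost without a treated library is not particular to that gene. With the same FPKM total 7569 genes were higher and 701 lower, against 3099 and 3141. Of 56 tested pathway genes 31 were called (16 higher, 15 lower), near the share of 56.1% of all genes tested, and 16 to 39 leaving out 1 library. Gsta1, Gsta2, Gstt3, Slc7a11 and Chac2 are among the 31 and had to differ to be tested. With the same FPKM total 44 were higher and 1 lower, with quantile normalization 21 and 8, and with the trend removed 19 and 6, and with scaling by recovered reads 33 and 2.

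These signs turned. With the same FPKM total log2 fold changes became 0.82 (Gstm2), 0.66 (Gstp1), 0.52 (Mgst2), 0.43 (Gstm7), 0.41 (Ptges), 0.059 (Txndc12) and 0.0049 (Glrx3). With scaling by recovered reads they became 0.57 (Gstm2), 0.41 (Gstp1), 0.29 (Mgst2), 0.20 (Gstm7) and 0.16 (Ptges). With quantile normalization they became 0.52 (Gstm2), 0.69 (Gstp1), 0.23 (Ptges) and -0.066 (Gstz1), and with the trend removed 0.56 (Gstm2), 0.84 (Gstp1), 0.042 (Ptges) and -0.17 (Gstz1). Against control 2 alone they became -0.16 (Gstm1), -0.25 (Mgst3), 0.0092 (Gstp1) and -0.078 (Gstz1). Krt8, tried after seeing the data, became 0.55 with the same FPKM total, 0.30 with scaling by recovered reads, 0.76 with quantile normalization and 0.88 with the trend removed, and with no filter it was no longer called (limma adjusted p = 0.0797). Leaving out 1 library, Gstm2 ranged from -0.44 to 0.15. Beyond the shift of the median, the cause was not tested.

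Same-numbered samples did not deviate together: the correlations of their deviations across genes were -0.0538, -0.111 and -0.14. Those of samples with unlike numbers lay between -0.0126 and 0.129. No pairing by number was seen, but correlations this small cannot decide whether same-numbered samples were handled together. With the replicate block 5287 genes, 25 pathway genes and 1 member (Gsto1) were called. The named genes no longer called with it were Mgst2 (limma adjusted p = 0.0905), Gstm7 (0.0556), Ptges (0.0571), Gclc (0.095) and Krt8 (0.114). Depth limits Gstt1 and Gstk1, which had at most 31 reads in a library.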
